A study of Canis lupus familiaris with 15 samples.

Results

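Serum amyloid A (SAA) mRNA was described in the corpus luteum (CL) of 15 dogs from 3 rows of the count table, ENSCAFG00000009135 (SAA1), ENSCAFG00000015206 and ENSCAFG00000029553, out of 23630 rows in all. The study's tables of called genes give these rows as serum amyloid A genes. Any serum amyloid A row outside those tables could not be recognised here. All 3 passed the filter on low counts, which kept 14922 genes. RNA-Seq of poly-A enriched RNA was carried out with 1 library per dog, and the groups were the 4 conditions under which CL were collected. The luteolysis group held 3 pregnant bitches sampled at natural prepartum luteolysis, detected by progesterone measurements every 6 h from day 58 of pregnancy. The antigestagen group held 5 pregnant bitches given the progesterone receptor blocker aglepristone at 10 mg/kg on days 40 to 45 after ovulation, in 2 applications 24 h apart, with tissue collected 24 h after the last. The mid-gestation group held 5 untreated pregnant bitches on days 35 to 40, and the luteal regression group 2 non-pregnant bitches on day 65. All were healthy mixed-breed bitches aged 2 to 8 years, and each CL was trimmed of surrounding ovarian tissue. Pregnancy stage and treatment differed together between luteolysis and the antigestagen group, so their parts cannot be told apart.

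Serum amyloid A proteins are small apolipoproteins carried by high-density lipoprotein. The acute-phase forms are made mainly in the liver, where interleukin 1, interleukin 6 and tumour necrosis factor raise transcription through NF-kB, C/EBP factors and STAT3, and SAA is a widely used marker of systemic inflammation in dogs. Some forms are also transcribed outside the liver, in epithelia, adipose tissue and macrophages, and the proteins can act on FPR2, TLR2, TLR4 and SCARB1. In the canine CL, luteolysis at the end of pregnancy is a rapid event, whereas the CL of the non-pregnant cycle regresses slowly.

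The identity of the rows carries an uncertainty. Genes of this family are close copies of each other, and how reads that match several copies were treated is not given in the sources used here, so reads could have been split between the rows; each row and the summed count are therefore given side by side. The RefSeq transcript that the study's annotation ties to ENSCAFG00000009135 belongs, in the RefSeq annotation of the assembly UU_Cfam_GSD_1.0, to LOC403585, while the symbol SAA1 names the neighbouring gene there. That annotation places 6 protein-coding genes between SAAL1 and HPS5, in the order LOC102155886, LOC751814, LOC403585, SAA1, LOC119877366 and LOC111089962. ENSCAFG00000015206 and ENSCAFG00000029553 had no counterpart named in it, so which isoform each encodes was not determined.

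Library totals ran from 8558743 counts in antigestagen dog 1 to 26284315 in mid-gestation dog 5. The lowest count of any SAA row in any dog was 105 and the highest 26720. Luteolysis dog 1 stood apart from its group. Across the 14922 genes its Spearman rho was 0.912 with dog 2 and 0.928 with dog 3, against 0.976 between dogs 2 and 3, and rho within the other groups lay between 0.941 and 0.984. Values are given below in CPM, which are counts relative to the effective library size from TMM scaling. Calls of the SAA rows over mid-gestation and over the antigestagen group are given with and without luteolysis dog 1. So are the totals of all genes called in the contrasts with luteolysis. Totals of called list genes are given without it over the antigestagen group and luteal regression. All correlations with SAA include this dog. Single list genes are given without it at most within ranges and counts over alternatives.

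ENSCAFG00000009135, the row annotated as SAA1, read 89.6, 355 and 305 CPM in luteolysis dogs 1 to 3. It read 38.8, 41.1, 203, 124 and 36.9 CPM in antigestagen dogs 1 to 5, and 6.03, 9.96, 60.0, 15.9 and 43.2 CPM in mid-gestation dogs 1 to 5. The luteal regression dogs read 7.43 and 5.39 CPM. All 3 luteolysis dogs lay above every mid-gestation and luteal regression dog, but luteolysis dog 1 lay below antigestagen dogs 3 and 4. Mid-gestation dogs 3 and 5 reached into the antigestagen range, and both luteal regression dogs were near the lowest mid-gestation dogs.

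For ENSCAFG00000015206, whose product is annotated as a serum amyloid A protein, the luteolysis dogs read 38.1, 263 and 131 CPM. The antigestagen dogs read 12.2, 37.7, 62.9, 78.8 and 23.2 CPM and the mid-gestation dogs 9.34, 12.4, 54.2, 23.7 and 17.9 CPM. The luteal regression dogs read 6.99 and 6.21 CPM, below every other dog. Luteolysis dogs 2 and 3 were above all 12 dogs of the other groups, whereas luteolysis dog 1 was below mid-gestation dog 3 and below antigestagen dogs 3 and 4.

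ENSCAFG00000029553, the other row annotated as a serum amyloid A protein, gave over 50% of the SAA reads in 12 of 15 dogs. It read 405, 1056 and 1081 CPM in the luteolysis dogs, and 166, 88.7, 356, 71.4 and 56.5 CPM in the antigestagen dogs. The mid-gestation dogs read 23.8, 48.6, 287, 22.1 and 160 CPM, and the luteal regression dogs 30.5 and 16.6 CPM. This was the row of the 3 in which luteolysis overlapped no other group, since luteolysis dog 1 at 405 CPM stood above antigestagen dog 3 at 356 CPM. The luteal regression dogs lay within or below the range of the 3 lowest mid-gestation dogs.

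**Figure D1:**
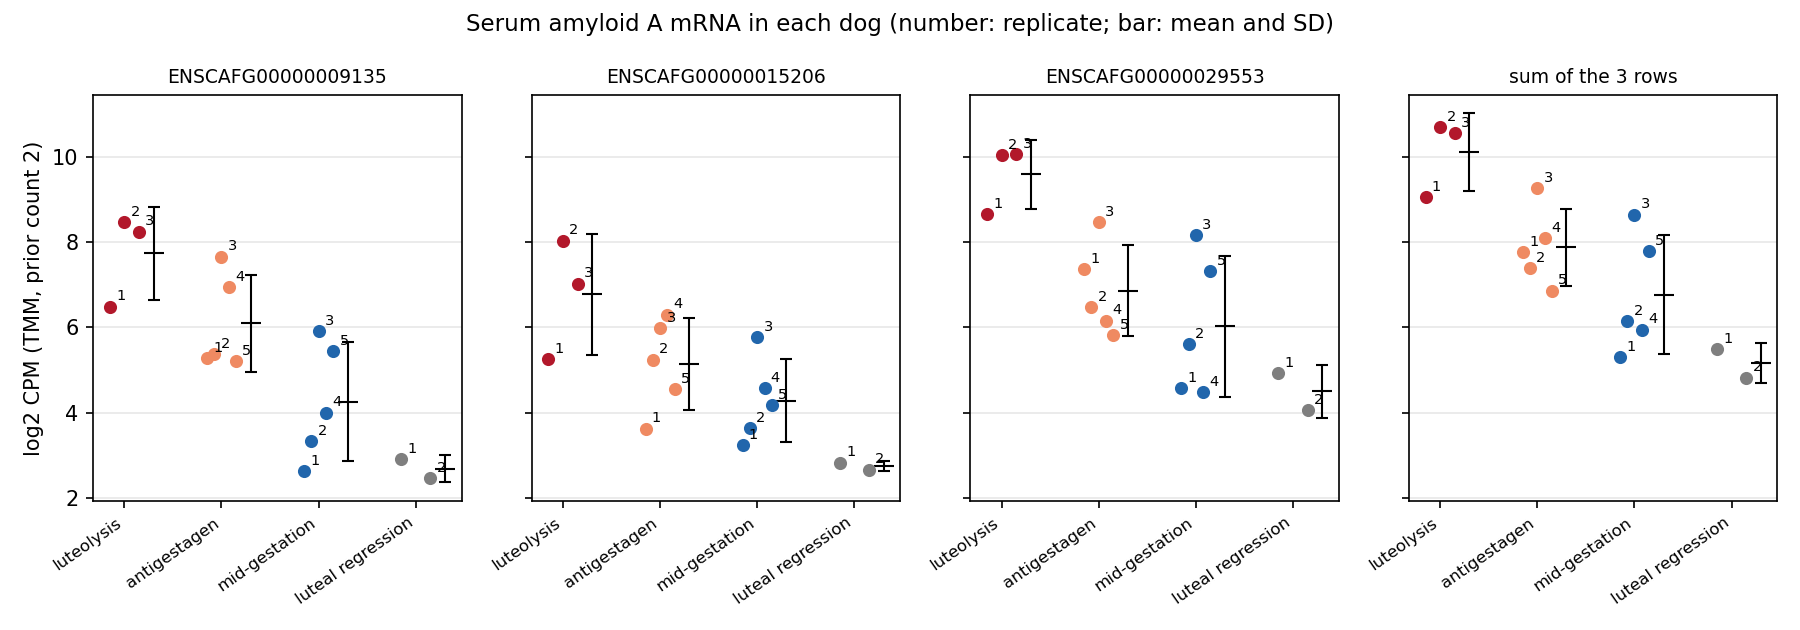
Log2 CPM (vertical axis, TMM scaling, prior count 2) of the 3 serum amyloid A rows and of their summed count in each dog, by group; numbers are replicates, and the black bars give the group mean and SD. The 3 luteolysis dogs sit above all mid-gestation dogs in the panels of ENSCAFG00000009135, ENSCAFG00000029553 and the sum, and the 2 luteal regression dogs are lowest on average in every panel.

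The summed count of the 3 rows came to 533, 1674 and 1516 CPM in the luteolysis dogs and to 217, 168, 621, 274 and 117 CPM in the antigestagen dogs. It came to 39.2, 71.0, 402, 61.8 and 221 CPM at mid-gestation and to 44.9 and 28.2 CPM in luteal regression. Luteolysis and mid-gestation did not overlap, and antigestagen dog 3 exceeded luteolysis dog 1. The share of the whole library ranged from 0.180% in luteolysis dog 2 (95% Wilson interval 0.179 to 0.182) to 0.00333% in luteal regression dog 2 (0.00306 to 0.00362), intervals that cover counting error only. In bulk tissue, fewer cells that transcribe SAA and less SAA mRNA per cell cannot be told apart.

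The order of the group means was the same for each row and for the sum, on the log2 scale: luteolysis, antigestagen, mid-gestation and luteal regression. Mean log2 CPM of the sum was 10.11 ± 0.92 (SD, n = 3) in luteolysis, 7.88 ± 0.91 (SD, n = 5) in the antigestagen group, 6.77 ± 1.40 (SD, n = 5) at mid-gestation and 5.16 ± 0.47 (SD, n = 2) in luteal regression. Neighbours in this order overlapped in the sum at each step. The step from luteolysis to the antigestagen group was 2.23 on the log2 scale, that from antigestagen to mid-gestation 1.11, and mid-gestation and luteal regression differed by a luteal regression minus mid-gestation value of -1.61. The step from antigestagen to mid-gestation was thus under the SD of the mid-gestation group, and that from mid-gestation to luteal regression a little above it.

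SAA mRNA varied strongly between dogs of the same group. At mid-gestation the sum spanned 10.3-fold from the lowest to the highest dog, with dogs 3 and 5 high and dogs 1, 2 and 4 low. In the antigestagen group it spanned 5.33-fold and in luteolysis 3.14-fold. The SD of log2 CPM at mid-gestation was 1.39 for ENSCAFG00000009135, 0.97 for ENSCAFG00000015206 and 1.65 for ENSCAFG00000029553, against a median of 0.34 over all 14922 genes. For ENSCAFG00000029553, 99.3% of genes had a smaller SD in that group. In the antigestagen group the SDs were 1.14, 1.09 and 1.07 against a median of 0.41. The 2 luteal regression dogs had a 1.59-fold span of the sum, which cannot be set against spans over 3 or 5 dogs. Their SDs were 0.32, 0.12 and 0.62 in the same order of rows, against a median of 0.16. For ENSCAFG00000029553, 91.7% of genes had a smaller SD in luteal regression.

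The contrast of luteolysis with mid-gestation sets the CL at natural luteolysis beside the CL of earlier pregnancy. Pregnancy stage differed together with luteolysis here, so their parts cannot be told apart. All 3 SAA rows were higher in luteolysis and passed the threshold of p below 0.01 and adjusted p below 0.1, in a table where 5.73% of the 14669 genes tested were called higher in luteolysis (edgeR quasi-likelihood test with Benjamini-Hochberg adjustment). The rows were recognised as SAA through the study's tables of called genes, so nothing is read from this count against that share. ENSCAFG00000009135 rose 9.26-fold (log2 ratio 3.21, SE 0.73, edgeR adjusted p = 0.0262), with each of the 3 luteolysis dogs above all 5 mid-gestation dogs. ENSCAFG00000029553 rose 7.81-fold (log2 ratio 2.97, SE 0.78, edgeR adjusted p = 0.0466), again without overlap. ENSCAFG00000015206 rose 6.13-fold (log2 ratio 2.62, SE 0.64, edgeR adjusted p = 0.0361), with 2 of 3 luteolysis dogs above all mid-gestation dogs. The two-sided exact permutation test of log2 CPM over the 56 arrangements of these 8 dogs gave p = 0.0357 for each row. The sum differed by 3.34 on the log2 scale, a 10.1-fold difference of geometric means.

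The calls changed with the luteolysis dogs kept. Without dog 1 all 3 rows passed, without dog 2 the row ENSCAFG00000009135 alone passed (edgeR adjusted p 0.183 for ENSCAFG00000015206 and 0.127 for ENSCAFG00000029553), and without dog 3 none did under edgeR (adjusted p 0.133, 0.137 and 0.223 for ENSCAFG00000009135, ENSCAFG00000015206 and ENSCAFG00000029553). Without dog 3 the log2 ratios were 3.04, 2.68 and 2.75 in the same order, and 112 genes of the whole table passed in place of 1197. With 1 dog of either group left out the log2 ratios stayed positive, between 2.87 and 3.72 for ENSCAFG00000009135, 1.85 and 3.17 for ENSCAFG00000015206, and 2.71 and 3.72 for ENSCAFG00000029553. The lowest value of ENSCAFG00000015206, 1.85, came without luteolysis dog 2. Over the alternatives in which the tested genes, the scaling, the tool or the dogs differed, the adjusted p ranged from 0.00254 to 0.133, from 0.00135 to 0.183 and from 0.00586 to 0.223 in the same order.

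Luteolysis and luteal regression contrast the rapid end of luteal function at term with the slow regression of the non-pregnant cycle. Pregnancy and the way luteal function ended differed together here, so their parts cannot be told apart. All 3 SAA rows were higher in luteolysis and passed the threshold, against 3.58% of 14768 genes called higher in luteolysis. Again nothing is read from this count against that share, because the rows were recognised through the study's tables of called genes. The ratio was 39.0-fold for ENSCAFG00000009135 (log2 ratio 5.28, SE 1.17, edgeR adjusted p = 0.0474), 21.8-fold for ENSCAFG00000015206 (log2 ratio 4.45, SE 1.00, edgeR adjusted p = 0.0474) and 35.9-fold for ENSCAFG00000029553 (log2 ratio 5.17, SE 1.25, edgeR adjusted p = 0.0557). No luteolysis dog overlapped either luteal regression dog in any row, and the sum differed by 4.95 on the log2 scale. Without 1 dog the log2 ratios of the rows lay between 4.94 and 5.65, 3.68 and 4.86, and 4.80 and 5.67 in the same order. With 3 dogs against 2, an exact permutation test cannot go below p = 0.1, which each row gave. Without luteolysis dog 3, or without either luteal regression dog, none of the 3 rows passed in edgeR, with log2 ratios between 4.37 and 5.67; the single luteal regression dog left was then assumed to vary like the other groups. With all 5 dogs kept but only these groups fitted, none passed either, at an edgeR adjusted p of 0.225 for each row, and 0 genes of the table were called. The adjusted p of the 3 rows ranged up to 0.372, 0.372 and 0.376 over the alternatives, and from 5.25e-05, 9.09e-06 and 0.00043.

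**Figure D2:**
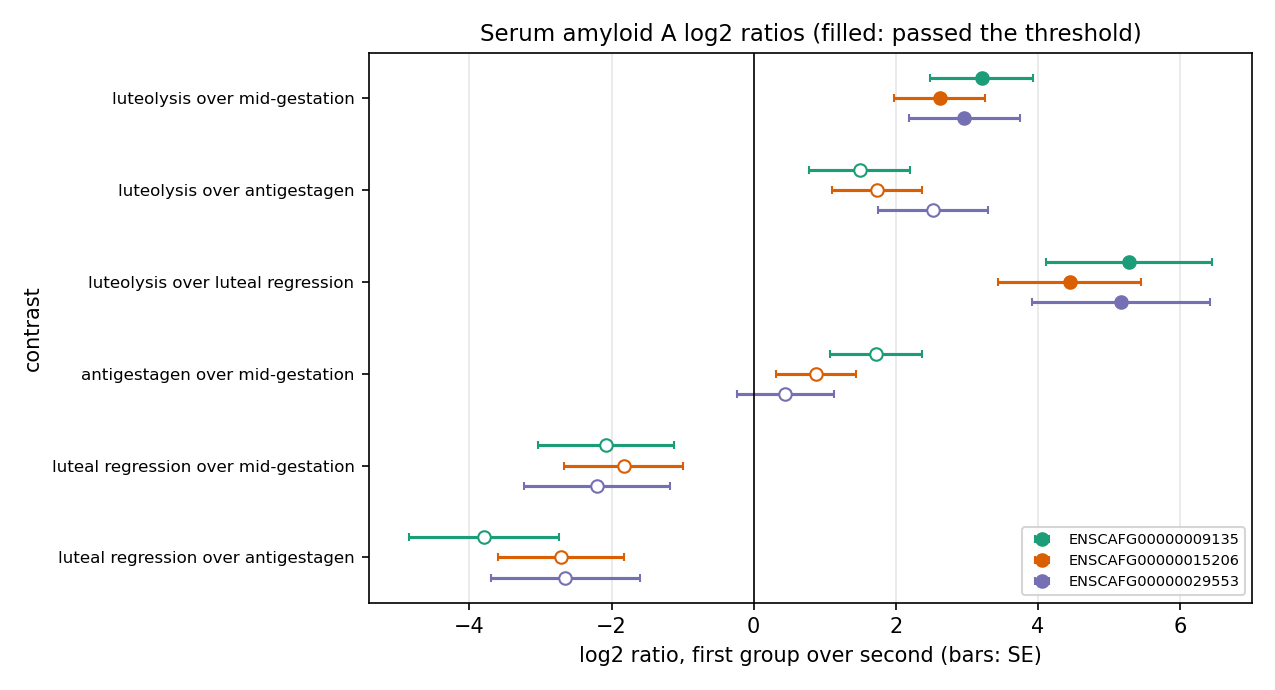
Log2 ratio between groups (horizontal axis, group named first divided by the other) for the 3 serum amyloid A rows in the 6 contrasts of the edgeR fit; points are the estimates, bars the SE, and filled points passed p below 0.01 with adjusted p below 0.1. The filled points are the 3 rows in luteolysis over mid-gestation and the 3 rows in luteolysis over luteal regression.

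Natural and antigestagen-induced luteolysis were compared directly. The 3 rows were 2.82-fold, 3.34-fold and 5.73-fold higher in natural luteolysis for ENSCAFG00000009135, ENSCAFG00000015206 and ENSCAFG00000029553, but 0 of 3 passed the edgeR threshold, in a table where 4.75% of 14473 genes were called in either direction. The log2 ratios were 1.49 (SE 0.71, edgeR adjusted p = 0.279), 1.74 (SE 0.63, edgeR adjusted p = 0.162) and 2.52 (SE 0.77, edgeR adjusted p = 0.104). The last of these was just above the limit of 0.1, and in that row all 3 luteolysis dogs lay above all 5 antigestagen dogs. At an unadjusted p under 0.05 there were 2 of 3, DESeq2 called 2 of 3 (ENSCAFG00000015206 and ENSCAFG00000029553, DESeq2 adjusted p 0.0635 and 0.0614) and limma-voom called ENSCAFG00000015206 alone. Without luteolysis dog 1, edgeR called ENSCAFG00000015206 and ENSCAFG00000029553 (adjusted p 0.0278 and 0.0364), and without antigestagen dog 3 it called ENSCAFG00000029553 (adjusted p 0.0826). Over all alternatives the adjusted p ranged from 0.105 to 0.669, 0.0278 to 0.557 and 0.0364 to 0.409. The log2 ratios without 1 dog lay between 1.15 and 2.05, 0.97 and 2.20, and 2.29 and 3.15 in the same order. A missed threshold does not show that natural and induced luteolysis had like SAA levels.

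The antigestagen group was also compared with mid-gestation, the untreated pregnant state nearest to it in time. Treatment and pregnancy day differed together here too, so their parts cannot be told apart. All 3 rows were higher on average: ENSCAFG00000009135 was 3.29-fold higher after antigestagen (log2 ratio 1.72, SE 0.65, edgeR adjusted p = 0.617), ENSCAFG00000015206 1.84-fold (log2 ratio 0.88, SE 0.57, edgeR adjusted p = 0.807) and ENSCAFG00000029553 1.36-fold (log2 ratio 0.45, SE 0.68, edgeR adjusted p = 0.935). None of the 3 passed in edgeR, as did 0% of the 14399 genes tested. At an unadjusted p under 0.05 stood 1 of the 3 rows and 980 genes of the table, DESeq2 called 0 of 3 rows and 85 genes, and limma-voom 0 of 3 rows and 18 genes. The groups overlapped in every row, and without antigestagen dog 3 the log2 ratio of ENSCAFG00000029553 turned to -0.18, whereas without mid-gestation dog 3 it was 1.20 and with limma-voom 1.59. Mean log2 CPM of this row differed by 0.83. Whether the rows differed from each other in this contrast was not tested.

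Luteal regression gave the lowest mean SAA levels. Its dogs were non-pregnant and sampled later after ovulation than the mid-gestation and antigestagen dogs, so these parts cannot be told apart. Against mid-gestation the log2 ratios were -2.07 (SE 0.96), -1.83 (SE 0.84) and -2.20 (SE 1.03) for ENSCAFG00000009135, ENSCAFG00000015206 and ENSCAFG00000029553, and 0 of 3 passed in edgeR, with adjusted p 0.35, 0.348 and 0.353, as did 0% of 14685 genes. Without 1 dog these ratios lay between -2.33 and -1.53, -2.03 and -1.24, and -2.71 and -1.41 in the same order. All 3 rows and 2073 genes had an unadjusted p under 0.05, and DESeq2 and limma-voom called 0 of 3 rows beside 332 and 2741 genes. Fitted on these 2 groups alone, edgeR called 770 genes and again 0 of 3 rows. Against the antigestagen group the log2 ratios were -3.79 (SE 1.06), -2.71 (SE 0.88) and -2.65 (SE 1.05), with no overlap in any row. Without 1 dog they lay between -4.04 and -3.23, -2.94 and -2.35, and -3.15 and -2.02. Again 0 of 3 rows passed in edgeR (adjusted p 0.179, 0.203 and 0.242), with 0% of 14578 genes called. All 3 rows and 2496 genes had an unadjusted p under 0.05, DESeq2 called 2 of 3 rows and 918 genes, and limma-voom 3 of 3 rows and 2408 genes. The 6 contrasts share groups, so they are not independent of each other.

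The shares of the 3 rows differed between dogs. ENSCAFG00000029553 held 76.0%, 63.1% and 71.3% of the summed SAA count in the luteolysis dogs, 67.9% and 58.9% in the luteal regression dogs, and 60.8%, 68.5%, 71.6%, 35.8% and 72.4% in the mid-gestation dogs. In the antigestagen dogs it held 76.5%, 53.0%, 57.3%, 26.1% and 48.4%. Antigestagen dog 4 had the lowest share of all (95% Wilson interval 24.8 to 27.4%), and mid-gestation dog 4 the next (33.1 to 38.6%); the interval of this share was at most 8.20 percentage points wide in any dog, from counting error alone. In antigestagen dog 4 ENSCAFG00000009135 held 45.2%, the highest share of that row, and in mid-gestation dog 4 ENSCAFG00000015206 held 38.4%, the highest share of that one. The mean share of ENSCAFG00000009135 was 30.4% ± 10.2 (SD, n = 5) in the antigestagen group and 17.9% ± 4.86 (SD, n = 5) at mid-gestation, and the groups overlapped. These are shares of reads and not of transcripts, because gene lengths were not used.

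**Figure D3:**
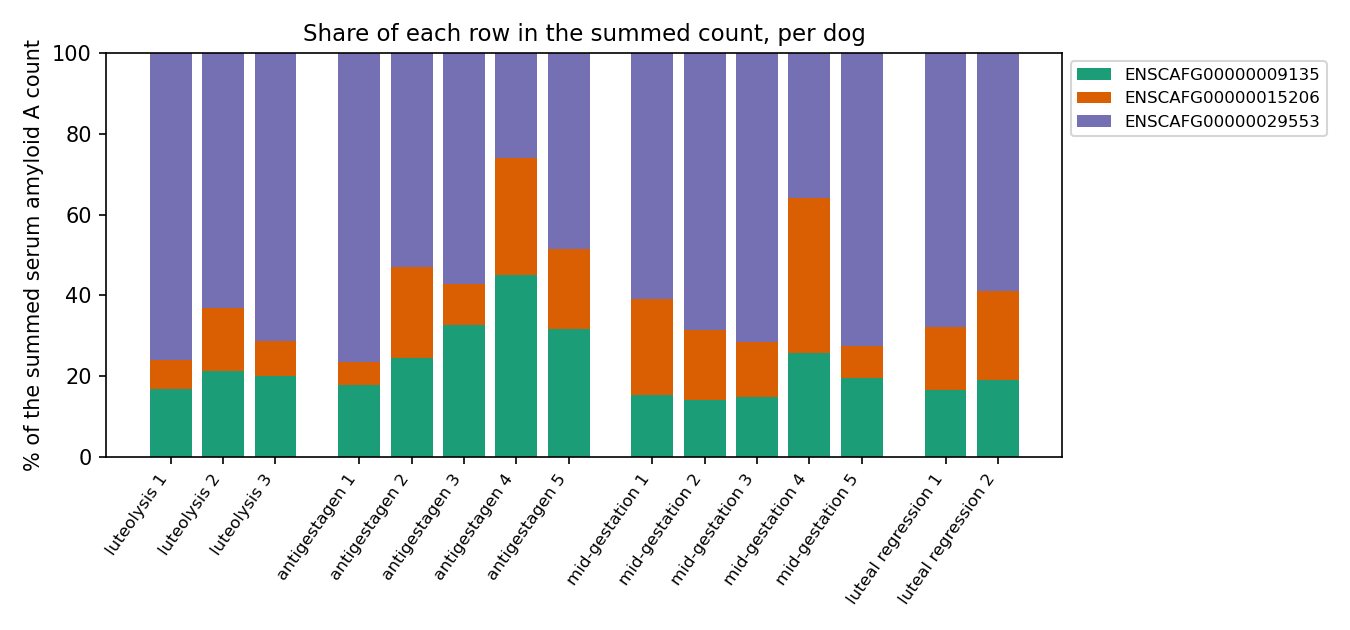
Share of each serum amyloid A row in the summed count of the 3 rows (vertical axis, percent) in each dog, with dogs ordered by group and replicate. The share of ENSCAFG00000029553 runs from 26.1% in antigestagen dog 4 to 76.5% in antigestagen dog 1.

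Over the 15 dogs the rows nevertheless ran largely in parallel. Pearson's r of log2 CPM was 0.93 between ENSCAFG00000009135 and ENSCAFG00000015206 (Spearman rho 0.94), 0.90 between ENSCAFG00000009135 and ENSCAFG00000029553 (rho 0.90), and 0.81 between ENSCAFG00000015206 and ENSCAFG00000029553 (rho 0.76). With values centred on the group means, r was 0.83, 0.79 and 0.47. The last pair was thus the least alike within groups. These values are descriptions over dogs that share groups.

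Genes taken to act upstream of SAA came from 3 lists. Only genes that the study's tables of called genes name could be paired with a row, so the counts and medians of this and the other lists lean towards genes that moved, and nothing is read from their distance to all genes. Of all genes tested, 5.73%, 3.12% and 3.58% were called higher in luteolysis than at mid-gestation, after antigestagen and in luteal regression, and 20.2%, 18.2% and 18.8% had an unadjusted p under 0.05 in either direction. Of 10 ligands listed as inducers of SAA, 5 were paired, and 1 rose over mid-gestation, 1 over the antigestagen group and 0 over luteal regression in edgeR, while all 5 log2 ratios were positive in each. The ligand called over the antigestagen group was CXCL8, which the paper names only as a possible stimulator of acute-phase proteins. Over luteal regression all 5 had an unadjusted p under 0.05, as did 18.8% of all genes, and DESeq2 called 5 and limma-voom 4. Their median log2 ratio was 1.90, 1.90 and 4.18, beside 0.02, 0.02 and 0.05 over all genes, a distance that the pairing through called genes favours. The other 5 ligands have no value here. Summed, the 5 paired ligands ran with SAA at r = 0.61 (rho 0.55), and -0.01 when centred within groups.

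IL1B, the cytokine best known for inducing SAA, read 0, 7.27 and 18.8 CPM in luteolysis dogs 1 to 3, where the count of 0 in dog 1 allows up to 0.225 CPM. It read between 0.887 and 3.67 CPM in the antigestagen dogs (median 1.13), between 0.105 and 2.03 CPM at mid-gestation (median 0.631) and 0.489 and 0.103 CPM in luteal regression. Luteolysis dog 1, with 533 CPM of SAA, was thus the dog without an IL1B read. The rise of IL1B over mid-gestation (log2 ratio 3.22, SE 1.01, edgeR adjusted p = 0.0858) came from 2 of 3 dogs, and its adjusted p ranged from 0.00404 to 0.55 over 16 alternatives, of which 10 lost the call. Without luteolysis dog 3 its log2 ratio was 1.96, and the call was also lost without luteolysis dog 2 and without each mid-gestation dog. CXCL8, a neutrophil-attracting chemokine, read 86.0, 311 and 282 CPM in luteolysis, between 4.82 and 46.7 CPM in the antigestagen group (median 17.5), between 2.88 and 177 CPM at mid-gestation (median 7.70) and 10.1 and 4.72 CPM in luteal regression. It rose over the antigestagen group (log2 ratio 3.52, SE 1.05, edgeR adjusted p = 0.0971, between 0.0136 and 0.359 over 16 alternatives, of which 8 lost the call) but not past the threshold over mid-gestation (log2 ratio 2.35, SE 1.02, edgeR adjusted p = 0.211), where mid-gestation dog 4, with 61.8 CPM of SAA, had the 177 CPM. Without that dog CXCL8 passed over mid-gestation (log2 ratio 4.32, edgeR adjusted p = 0.0326), as it did with limma-voom (3.64), and its adjusted p lay between 0.0215 and 0.522 over 16 alternatives.

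Among 11 receptors and decoys of these ligands, 5 were paired, and 3 rose in luteolysis over mid-gestation, where 5.73% of all genes did: the decoy receptor IL1R2 (log2 ratio 2.14, SE 0.47), the receptor antagonist IL1RN (1.69, SE 0.51) and the oncostatin M receptor OSMR (1.25, SE 0.39). For IL1RN and OSMR luteolysis dog 1 (6.38 and 109 CPM) lay inside the mid-gestation range, and each call was lost in 8 of 16 alternatives, against 1 of 16 for IL1R2. IL1RN and OSMR also passed over luteal regression (log2 ratios 2.46 and 1.94), calls lost in 6 of 13 alternatives each. Over the antigestagen group 0 of 5 passed in edgeR, against 3 at an unadjusted p under 0.05, 2 in DESeq2 and 3 in limma-voom. Of 12 transcription factors and feedback genes, 6 were paired, and 4 rose over mid-gestation: the subunits REL (log2 ratio 2.67, SE 0.72), RELA (1.52, SE 0.35) and NFKB2 (0.86, SE 0.23) and the inhibitor NFKBIA (1.12, SE 0.34). Over the antigestagen group and luteal regression 0 of 6 passed in edgeR, where 2 and 4 had an unadjusted p under 0.05, DESeq2 called 0 and 2, and limma-voom 1 and 5. Of the 2 and the 4, 1 each was lower in luteolysis. Luteolysis dog 1 lay within the mid-gestation range for REL (0.751 CPM), RELA (40.8 CPM) and NFKBIA (93.2 CPM), and dogs 2 and 3 above it (10.4 and 11.1, 180 and 198, and 219 and 394 CPM). The edgeR adjusted p over mid-gestation was 0.0515 for REL, 0.0284 for RELA, 0.0459 for NFKB2 and 0.0711 for NFKBIA, and reached 0.298, 0.25, 0.375 and 0.598 over 16 alternatives, of which 6, 3, 3 and 8 lost the call. CEBPB, which encodes a C/EBP factor that binds SAA promoters, passed in no luteolysis contrast in edgeR, with log2 ratios of -0.57 (SE 0.42) over mid-gestation, -1.07 (SE 0.43) over the antigestagen group and 0.31 (SE 0.52) over luteal regression; its unadjusted p was under 0.05 over the antigestagen group alone. TLR4, the single gene paired of 12 SAA receptors and partners, passed in none of the 3 luteolysis contrasts in edgeR, with log2 ratios of 0.46, 0.17 and 1.19; its unadjusted p was under 0.05 over luteal regression alone, where DESeq2 and limma-voom called it.

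Of 27 other acute-phase proteins, 6 were paired, and 2 rose in luteolysis over mid-gestation, 2 over the antigestagen group, where no SAA row passed in edgeR, and 4 over luteal regression, beside the 5.73%, 3.12% and 3.58% of all genes. The 6 could be paired because the study's tables of called genes name them, so nothing is read from these counts against those shares. The list did not separate proteins that rise in the acute phase from those that fall, such as transferrin. A rise of its members is therefore not read as an acute-phase response. SOD2, the mitochondrial superoxide dismutase, read 836, 1491 and 1796 CPM in the luteolysis dogs, between 374 and 721 CPM in the antigestagen dogs (median 452), between 304 and 579 CPM at mid-gestation (median 426) and 358 and 305 CPM in luteal regression. Luteolysis overlapped no other group in SOD2, and SOD2 rose over mid-gestation (log2 ratio 1.72, SE 0.27, edgeR adjusted p = 0.00808), the antigestagen group (1.44, SE 0.27, edgeR adjusted p = 0.0207) and luteal regression (2.05, SE 0.37, edgeR adjusted p = 0.0392). These calls were lost in 0 of 16, 2 of 16 and 4 of 13 alternatives, with an adjusted p of up to 0.0541, 0.174 and 0.372. Transferrin (TF) rose over the first of these (log2 ratio 3.93, SE 0.85) and the second (3.30, SE 0.83), but read 25.8 CPM in luteolysis dog 1 against 809 and 1286 CPM in dogs 2 and 3. In TF, luteolysis dog 1 lay below every mid-gestation and antigestagen dog, whose lowest values were 33.9 and 27.3 CPM. The TF calls were lost in 1 and 7 of 16 alternatives. SERPINA1, ceruloplasmin (CP) and ITIH4 passed over luteal regression (log2 ratios 4.09, 1.45 and 1.66), calls lost in 4, 6 and 8 of 13 alternatives. Over the 15 dogs the summed acute-phase genes ran with summed SAA at r = 0.86 (rho 0.90), or 0.63 when centred within groups. SOD2 gave over 50% of this sum in each of the 15 dogs. Singly, r was 0.87 for SOD2 (0.64 when centred within groups), 0.86 for CP (0.71), 0.80 for SERPINA1 (0.54), 0.69 for ITIH4 (0.45), 0.57 for LRG1 (0.25) and 0.49 for TF (0.25).

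**Figure D4:**
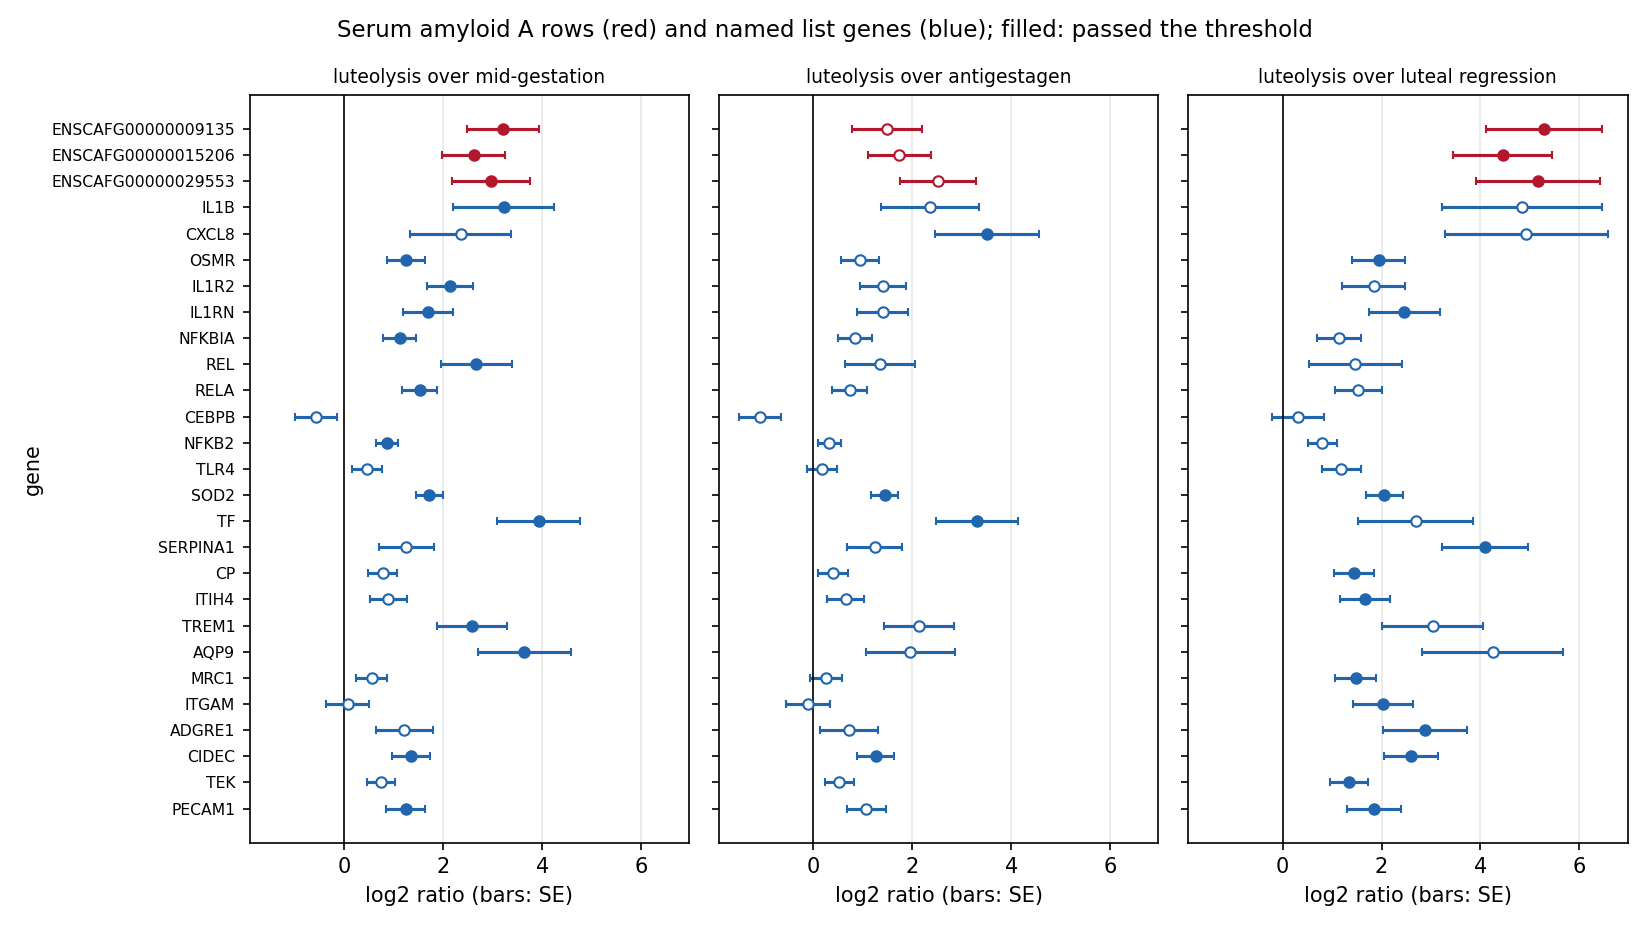
Log2 ratio (horizontal axis, bars: SE) of the 3 serum amyloid A rows in red and of the named genes of the lists in blue, in the 3 contrasts with luteolysis; filled points passed p below 0.01 with adjusted p below 0.1 in edgeR. SOD2 is filled in all 3 panels, whereas the serum amyloid A rows are filled against mid-gestation and luteal regression.

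Cell type markers were set beside SAA for the tissues that can transcribe it. None of 10 hepatocyte and none of 10 mesothelial and epithelial markers could be paired with a row, so they are not analysed here. Of 14 neutrophil markers 4 were paired (CSF3R, S100A9, AQP9 and TREM1), with S100A9 highest by CPM summed over the 15 dogs and CSF3R highest in luteolysis dog 2, at 48.6 CPM against 18.7 CPM of S100A9. Summed, they came to 3.30, 85.4 and 48.7 CPM in the luteolysis dogs, between 16.5 and 40.1 CPM in the antigestagen dogs (median 21.0), between 6.56 and 31.7 CPM at mid-gestation (median 9.25) and to 5.52 and 1.74 CPM in luteal regression. Luteolysis dogs 2 and 3, highest in SAA, were also highest in this sum, but luteolysis dog 1, with more SAA than every dog of the other groups but antigestagen dog 3, had a lower sum than any antigestagen or mid-gestation dog. S100A9 alone read 18.7 and 19.8 CPM in luteolysis dogs 2 and 3, below 23.1 and 22.4 CPM in antigestagen dogs 1 and 5. Its log2 ratio over the antigestagen group was -0.08. TREM1 and AQP9 rose over mid-gestation, where 5.73% of all genes did (log2 ratios 2.59 and 3.64), calls lost in 5 and 3 of 16 alternatives. The lowest luteolysis values, 0.375 CPM of TREM1 and 0.0751 CPM of AQP9, lay below every mid-gestation dog (lowest 0.411 and 0.103 CPM). Mean levels at mid-gestation were low, at 1.11 and 0.428 CPM. Over the antigestagen group and luteal regression 0 of 4 passed in edgeR, where 2 and 4 had an unadjusted p under 0.05, beside 18.2% and 18.8% of all genes, DESeq2 called 1 and 4, and limma-voom 2 and 4. Over 15 dogs the summed markers ran with SAA at r = 0.57 (rho 0.53), and 0.23 when centred within groups.

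Of 14 macrophage markers 7 were paired, and 0 of 7 passed in edgeR over mid-gestation and over the antigestagen group. At an unadjusted p under 0.05 stood 1 and 2 of them, all lower in luteolysis: C1QB over mid-gestation (log2 ratio -0.99), and C1QB and C1QC over the antigestagen group (-1.19 and -1.17). DESeq2 called 0 and 2, the 2 being lower in luteolysis, and limma-voom 4 and 2, of which 2 and 0 were lower. Over luteal regression, MRC1, ITGAM and ADGRE1 passed with higher values in luteolysis (log2 ratios 1.47, 2.03 and 2.88), against 3.58% of all genes called higher there, calls lost in 6, 7 and 6 of 13 alternatives. Their log2 ratios without 1 dog lay between 1.11 and 1.64, 1.03 and 2.39, and 2.48 and 3.33. The 7 markers summed, of which C1QB was highest by CPM summed over the 15 dogs, MRC1 by mean in luteolysis (142 CPM) and C1QC by mean in luteal regression (64.3 CPM), lay between 402 and 444 CPM in luteolysis, between 358 and 1057 CPM in the antigestagen group, between 337 and 828 CPM at mid-gestation and at 171 and 215 CPM in luteal regression, and ran with SAA at r = 0.32 (rho 0.28). Centred within groups, r was 0.15.

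Of 8 adipocyte markers CIDEC and CFD were paired, and CIDEC passed over all 3 groups (log2 ratios 1.35, 1.26 and 2.59) at a level of 3.20 to 4.73 CPM in luteolysis; the call was lost in 7 of 16, 10 of 16 and 4 of 13 alternatives, with edgeR adjusted p of 0.0577, 0.0988 and 0.0474 and ranges over the alternatives of 0.00598 to 0.261, 0.00461 to 0.364 and 0.000225 to 0.372. CFD passed over none of the 3 groups in edgeR, with log2 ratios of 1.02, 0.15 and 1.10 and an unadjusted p under 0.05 over mid-gestation and luteal regression. Of the pair, DESeq2 called 2, 1 and 1 over the 3 groups and limma-voom 2, 1 and 2, so CFD was called by both tools over mid-gestation and by limma-voom over luteal regression. Of all genes 5.73%, 3.12% and 3.58% were called higher in luteolysis in edgeR. The summed pair ran with SAA at r = 0.58 (rho 0.53), and at -0.33 when centred within groups. Of 8 endothelial markers 3 were paired; PECAM1 passed over mid-gestation (1.24, lost in 8 of 16 alternatives), and PECAM1 and TEK over luteal regression (1.86 and 1.34, lost in 6 and 5 of 13), beside 5.73% and 3.58% of all genes called higher in luteolysis. Over the antigestagen group 0 of 3 passed in edgeR, with 1 at an unadjusted p under 0.05, 1 in DESeq2 and 2 in limma-voom. The summed endothelial markers ran with SAA at r = 0.70 (rho 0.63), and 0.42 when centred within groups. The luteal markers CYP17A1 and PRLR, 2 of 11, had reads in every dog, and 0 of 2 passed in edgeR over mid-gestation, the antigestagen group and luteal regression. In the same order 0, 2 and 1 had an unadjusted p under 0.05, DESeq2 called 0, 1 and 1, and limma-voom 1, 1 and 1. The 2 genes moved in opposite directions over the antigestagen group, with log2 ratios of -0.86 for PRLR and 1.27 for CYP17A1, and CYP17A1 was lower in luteolysis than in luteal regression (-1.61). Summed, they ran with SAA at r = -0.50 (rho -0.43), and 0.11 when centred within groups. No marker of these lists was at 0 in any dog. The part of these cell types in the SAA differences was not tested.

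**Figure D5:**
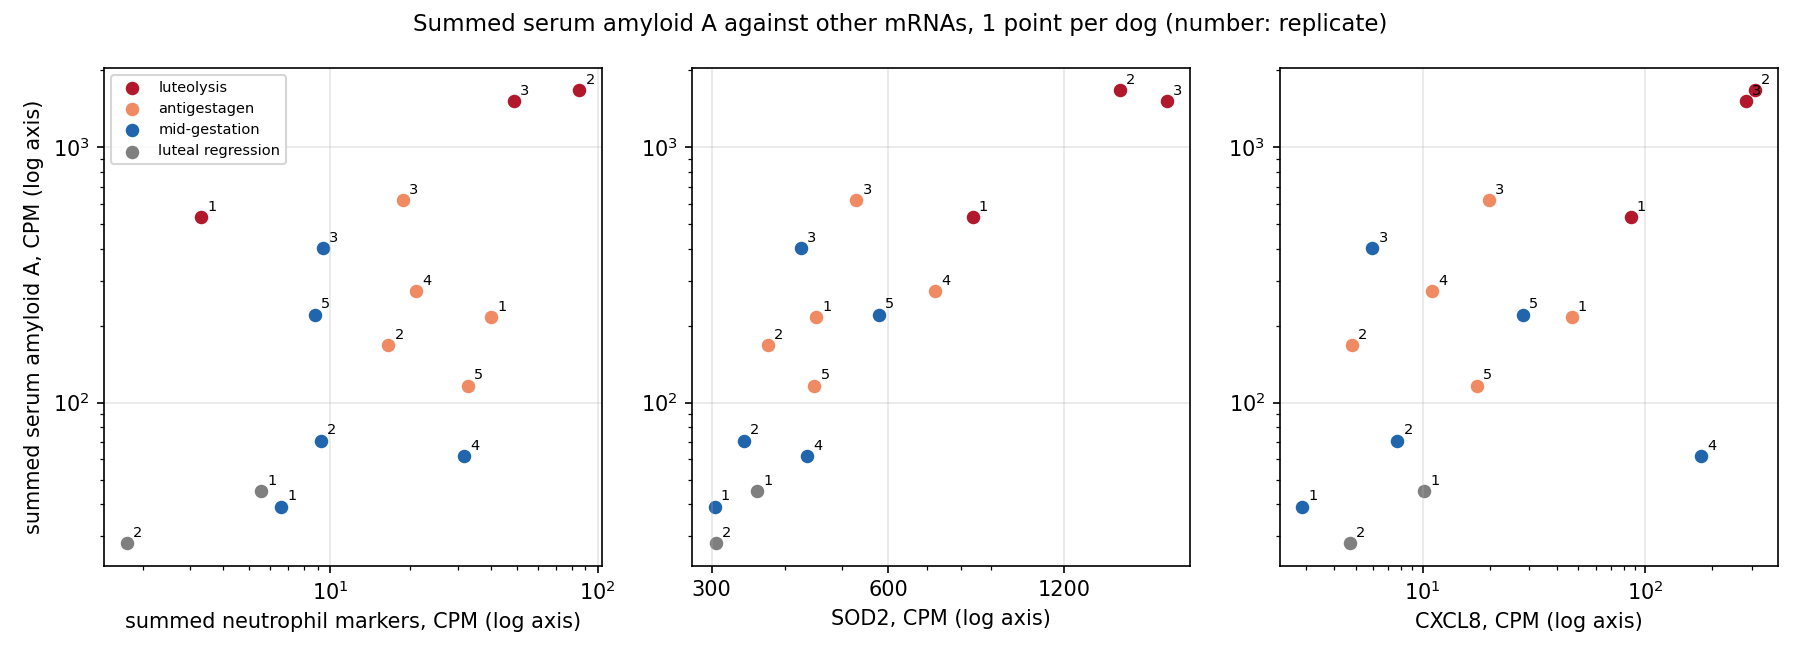
Summed serum amyloid A (vertical axis, CPM, log scale) against the summed neutrophil markers, SOD2 and CXCL8 (horizontal axes, CPM, log scale), with 1 point per dog coloured by group and numbered by replicate. Luteolysis dog 1 lies at 533 CPM of serum amyloid A with 3.30 CPM of neutrophil markers, and mid-gestation dog 4 at 61.8 CPM with 177 CPM of CXCL8.

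Among the 10 genes whose log2 CPM was most like summed SAA over the 15 dogs, out of 14919 compared, were SLC30A7 (Pearson's r 0.90), ABHD2 (0.89), DNAJC3 (0.89), SNX10 (0.89), ACSL3 (0.88), FAM20B (0.88), STAMBP (0.88), ENSCAFG00000000636 (0.87) and ARHGEF3 (0.87). SLC30A7 encodes a zinc transporter of the secretory pathway, DNAJC3 a co-chaperone of the endoplasmic reticulum and ACSL3 an acyl-CoA synthetase. Over mid-gestation, where the SAA rows had log2 ratios of 2.62 to 3.21, the log2 ratio was 0.78 for SLC30A7 (SE 0.21), 0.35 for DNAJC3 (SE 0.15) and 2.06 for SNX10 (SE 0.26). By Spearman rho 5 of the 10 were again among the first 10, without luteolysis dog 2, the dog with the highest sum, 8 of 10, and with values centred within groups 1 of 10, ENSCAFG00000000636 (r 0.80).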

How the data were processed

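The deposited counts were whole reads per Ensembl gene, which the authors obtained from single-end HiSeq 2500 reads with CASAVA 1.8 and bcl2fastq 1.8.4, STAR 2.5.1b on CanFam3.1 and featureCounts; values of at least 10000 are kept to 4 significant digits in the table. Here, edgeR 4.0.16 (R 4.3.3) was fitted to all 15 dogs with group as the single factor and TMM scaling (glmQLFit and glmQLFTest, two-sided). In each of 6 contrasts, genes whose mean count reached 10 in either group were tested, adjusted by Benjamini-Hochberg over all of them, and called at p below 0.01 and adjusted p below 0.1. SE is the log2 ratio divided by the root of F. The summed rows were compared on log2 CPM with a prior count of 2, without a test. DESeq2 1.42.0, limma 3.58.1 with quality weights, other scalings and filters, and fits without each dog were alternatives. The fit was tested on simulated data. The members and lists were chosen with earlier results of these data known. Symbols came from the study's tables of called genes, which name 2981 of 3261 identifiers; genes named in the text from the lists are those called in a luteolysis contrast, at most 4 per list and contrast by p, plus fixed SAA regulators (IL1B, IL1RN, CEBPB, NFKBIA and TLR4 of 17 chosen could be paired), and genes among the 10 most like SAA; C1QB, C1QC, CFD, PRLR, CYP17A1, LRG1, S100A9 and CSF3R are named outside this rule, after their values were seen; 1 gene of the neutrophil list and 1 of these 10 were not used here. Groups followed the condition label (the description of mid-gestation dog 1 gives the number of another group), and replicate numbers follow accession order. No replicate pair agreed within sampling noise. Sequences were not used here.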

Additional observations from a re-analysis of the deposited data

Results flagged for a closer look

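Of 62 groups of 5 dogs examined for a dog far from the others (the 3 serum amyloid A rows, their sum and shares, and the named list genes, in the antigestagen and mid-gestation groups), 4 stood out by the ratio of the gap to the range, and chance alone gives about 1 in 20. None was a serum amyloid A value. NFKBIA was at 7.37 log2 CPM in mid-gestation dog 4 against 6.44 to 6.70 in the others, the dog that was also highest in CXCL8 at mid-gestation. CP was at 4.80 log2 CPM in antigestagen dog 5 against 5.80 to 5.98. ITGAM was at 4.35 log2 CPM in antigestagen dog 4 against 3.60 to 3.73, and TEK at 7.16 against 6.27 to 6.31 in the same dog, which also had the lowest share of ENSCAFG00000029553. Groups of 3 and 2 dogs were too small to be examined in this way, so luteolysis dog 1 is given by its values alone.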

How the results depend on the processing

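The summed serum amyloid A differences kept their direction in all 6 contrasts under 30 alternatives of scaling, prior count and summary and under 45 in which 1 dog was left out, and moved by less than the SD between dogs pooled over the 2 groups compared; some moved by more than the SD of 0.47 of the 2 luteal regression dogs. Without 1 dog they lay between 2.97 and 3.87 (log2) for luteolysis over mid-gestation, 1.93 and 2.77 over the antigestagen group and 4.62 and 5.45 over luteal regression. For antigestagen over mid-gestation they lay between 0.74 and 1.56.

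The number of the 3 rows called depended on the dogs and the tool. For luteolysis over mid-gestation it was between 0 and 3 without 1 dog (0 without luteolysis dog 3, 1 without dog 2), and 2 when only these groups were fitted. Over luteal regression it was again between 0 and 3 (0 without luteolysis dog 3 or either luteal regression dog), 0 with only these groups fitted and 2 at an adjusted p below 0.05. Over the antigestagen group, where edgeR called 0, it was between 0 and 2 (2 without luteolysis dog 1, 1 without antigestagen dog 3), 1 when the filter was raised to a mean of 50, 2 with DESeq2 and 1 with limma-voom. For luteal regression over antigestagen it was 2 with DESeq2 and 3 with limma-voom. Of the log2 ratios of the single rows, that of ENSCAFG00000029553 for antigestagen over mid-gestation alone changed sign, lying between -0.18 and 1.20 without 1 dog. The cause of these changes was not tested, beyond the fewer dogs.

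Of 41 paired list genes, edgeR called 14 for luteolysis over mid-gestation, 4 over antigestagen and 12 over luteal regression; these alternatives were chosen after seeing the data. DESeq2 called 11 over antigestagen and 32 over luteal regression, and limma-voom 26, 17 and 36. An adjusted p below 0.05 left 6, 1 and 3, and fitting only the compared groups 3, 0 and 0. Without 1 dog the counts lay between 2 and 19, 0 and 17, and 0 and 31. The first was 2 without luteolysis dog 2 or 3 and 9 without mid-gestation dog 1, 2 or 3. The second was 17, 1 and 0 without luteolysis dog 1, 2 and 3, 1 without antigestagen dog 3 and 2 without dog 2, 4 or 5. The last was 31, 5 and 0 without luteolysis dog 1, 2 and 3, and 0 without either luteal regression dog. Log2 ratios near 0 changed sign for ITGAM over mid-gestation (-0.087 with limma-voom, between -0.92 and 0.47 without 1 dog), for ITGAM, MRC1 and TLR4 over antigestagen (between -1.11 and 0.29, -0.11 and 0.47, and -0.12 and 0.39 without 1 dog), and for CEBPB over luteal regression (between -0.10 and 0.61). The cause was not tested.

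Over all genes, 1197, 687 and 754 were called in the luteolysis contrasts. Without luteolysis dog 1 these became 2434, 2169 and 1593, without dog 2 474, 229 and 1035, and without dog 3 112, 6 and 5. DESeq2 called 1744, 1481 and 1563, limma-voom 3220, 2834 and 3645, and a fit of only the compared groups 422, 3 and 0. No paired analysis was possible because the groups hold different dogs and share no replicate that the labels pair.

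Depth gave at least 105 counts per serum amyloid A row and dog. The number of dogs limited the comparisons: luteal regression held 2 and luteolysis 3, of which dog 1 stood apart. Each dog gave 1 library, so variation between parts of a CL is not known. Mixed tissue gives no level per cell. No protein was measured here, and progesterone of the single dogs was not used.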
